A study of Mus musculus with 23 samples.

Results

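Sirtuins and the enzymes that make NAD were described here in brown adipose tissue (BAT) of mice with and without the mitochondrial calcium uniporter gene Mcu, at room temperature (RT) and in the cold. The genes were chosen by name and were Nampt, Nmnat1, Nmnat3, Sirt1, Sirt2, Sirt3, Sirt5, Sirt6 and the mitochondrial transhydrogenase gene Nnt. All 9 were found among the 14651 genes of the table, and all 9 were tested. RNA-seq was made from the BAT of 23 male mice aged 8 to 12 weeks. All mice were homozygous for an Mcu allele with loxP sites around exon 2 (Mcu fl/fl). Control mice carried no Cre, with 6 mice at RT and 5 at 4°C. BAT-Mcu-KO mice also carried UCP1-Cre, in which the Ucp1 promoter drives the recombinase in adipocytes that express Ucp1, with 6 mice at RT and 6 at 4°C. Cold exposure lasted 6 h. Mice at 4°C were housed singly in cages without bedding and, unless stated otherwise, without food. Whether the RT mice of the RNA-seq had food during those hours is not stated. If they did, cold and the absence of food cannot be told apart. The mice descended from mixed 129/BL6 embryonic stem cells and had been crossed to C57BL/6J.

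NAD carries electrons between metabolic reactions and is also consumed by enzymes that split it and release nicotinamide. Nampt makes nicotinamide mononucleotide from nicotinamide, the rate-limiting step of the salvage pathway, and the Nmnat enzymes turn it into NAD, Nmnat1 in the nucleus and, as usually described, Nmnat3 in mitochondria. Sirtuins use NAD to remove acyl groups from proteins. Sirt1 and Sirt6 act mainly in the nucleus, Sirt2 mainly in the cytosol, and Sirt3 and Sirt5 in mitochondria, where Sirt3 removes acetyl groups and Sirt5 succinyl, malonyl and glutaryl groups. Nnt lies in the inner mitochondrial membrane and uses the proton gradient to make NADPH from NADH. BAT burns fuel in its mitochondria to make heat, through uncoupling by Ucp1.

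Promoter sequences are shown for the members that changed with cold apart from Nnt, because these are the genes on which the results turn. Each is the run of 250 bases just before a RefSeq transcription start on GRCm38.p6, written 5′ to 3′ on the strand of the gene, and RefSeq starts need not coincide with those of GENCODE. Capitals mark the letters TGACG, the short form of the cAMP response element, on either strand.
Nampt promoter, chr12:32820085-32820334, plus strand: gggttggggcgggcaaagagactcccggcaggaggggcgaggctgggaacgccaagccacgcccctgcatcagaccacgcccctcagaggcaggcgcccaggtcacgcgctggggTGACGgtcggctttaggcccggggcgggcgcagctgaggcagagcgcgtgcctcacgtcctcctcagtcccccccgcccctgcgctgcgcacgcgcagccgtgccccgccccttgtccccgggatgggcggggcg
Nmnat3 promoter, chr9:98296320-98296569, plus strand: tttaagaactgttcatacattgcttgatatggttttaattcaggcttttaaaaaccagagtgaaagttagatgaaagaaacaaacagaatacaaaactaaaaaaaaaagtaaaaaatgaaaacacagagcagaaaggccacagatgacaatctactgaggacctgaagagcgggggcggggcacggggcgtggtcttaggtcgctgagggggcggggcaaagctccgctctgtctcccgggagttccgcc
Sirt3 promoter, chr7:140882310-140882559, minus strand: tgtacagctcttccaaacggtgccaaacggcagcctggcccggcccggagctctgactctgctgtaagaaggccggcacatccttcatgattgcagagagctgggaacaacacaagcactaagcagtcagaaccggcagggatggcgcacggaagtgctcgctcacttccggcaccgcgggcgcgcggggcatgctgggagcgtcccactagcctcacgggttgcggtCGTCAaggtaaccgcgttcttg
Sirt5 promoter, chr13:43365285-43365534, plus strand: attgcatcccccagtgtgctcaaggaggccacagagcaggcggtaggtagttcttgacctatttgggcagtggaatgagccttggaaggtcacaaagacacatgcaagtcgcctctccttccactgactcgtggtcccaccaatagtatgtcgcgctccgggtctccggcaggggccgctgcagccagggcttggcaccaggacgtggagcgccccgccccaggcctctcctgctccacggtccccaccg
RefSeq windows were found for 8 of the 9 members, 11 windows in all. The short element TGACG stood 135 to 131 bases before the Nampt start, and as CGTCA on the given strand 22 to 18 bases before the Sirt3 start shown. The other Sirt3 window, chr7:140881870-140882119, is not printed and did not hold it. The printed Sirt3 window lies within the gene Psmd13 (chr7:140881968-140898643), which is on the opposite strand. It was also present in the Sirt1 window, and 20.8% of all 32851 windows hold it. The Nmnat3 and Sirt5 windows held none of the motifs searched. The E-box CACGTG, the letters bound by clock factors, was in 7.15% of all windows and, among members, in that of Sirt1, where it occurred 2 times; its second copy overlaps TGACG there. No member window held the full cAMP response element TGACGTCA (1.79% of all windows), the estrogen-related receptor element TCAAGGTCA (0.423%), the ATF4 element TGATGNAAN (3.95%) or the C/EBP element ATTGCGCAA (0.0487%). The windows differed in base composition, with 75.6% G and C and 27 CpG for Nampt against 45.6% and 9 CpG for Nmnat3, beside medians over all windows of 52.4% and 6.

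Levels were read as normalized counts, which are reads per gene after each library was scaled by its size factor. Changes were tested in limma on log2(normalized count + 1), and a gene passed at an adjusted p under 0.05 (Benjamini-Hochberg, over all 14651 genes). Libraries held 7129271 to 21006347 reads on these genes, and the shallowest was control mouse 1 at 4°C. Mcu itself had a normalized count of 70.8 to 136.0 in control mice and 15.2 to 42.4 in BAT-Mcu-KO mice, with no overlap. The 11 brown adipocyte markers were all present, and their summed normalized count was 185803 to 260514 at RT and 291931 to 350960 at 4°C. Ucp1, which is among these markers, had 50590 to 70028 at RT and 140888 to 198043 at 4°C. The sum therefore moves with Ucp1 and does not measure the share of brown adipocytes. Summed endothelial markers (4 of 4 in the table) were also higher at 4°C, 4255 to 7352 against 2437 to 3699 at RT, and their part in the changes with cold described here was not tested. In whole tissue, fewer cells of a type and less RNA per cell cannot be told apart. The 10 skeletal muscle markers ranged from 17.4 to 62337 in sum between mice, and these values are set beside Nnt below.

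To compare members with each other, normalized counts were divided by the length of the gene's exons, as a normalized count per kb. Nampt was the most abundant member by far, at 1683 ± 256 per kb in control mice at RT (SD, n = 6). Sirt2 followed at 220.2 ± 28.3 and Sirt3 at 165 ± 24.95, and the ranges of these sirtuins overlapped. Nmnat1 stood at 81.2 ± 12.0, Nmnat3 at 51.3 ± 7.04, Sirt5 at 38.7 ± 3.05, Sirt6 at 33.0 ± 3.71 and Sirt1 at 14.4 ± 4.89. Of these neighbours in the order, Sirt5 and Sirt6 overlapped. Nnt was lowest at 3.10 ± 0.769. A second GENCODE entry named Nnt shares 3339 exonic bases with it on the same strand, 47.45% of the length used here. How reads on the shared bases were counted is not given, so the level of Nnt per kb is uncertain. The order shifted with temperature. In control mice at 4°C, Sirt6 (39.6 ± 5.96 per kb, n = 5) stood above Nmnat3 (26.3 ± 4.01) and Sirt5 (19.7 ± 4.30), and in BAT-Mcu-KO mice at 4°C Sirt6 (32.5 ± 4.70 per kb, n = 6) had the higher mean but overlapped Nmnat3 (28.8 ± 4.19). With the length of the longest transcript in place of all exons, Nmnat1 moved from place 4 to place 6 in control mice at RT, and Sirt6 no longer passed Nmnat3 in either genotype at 4°C.

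**Figure D1:**
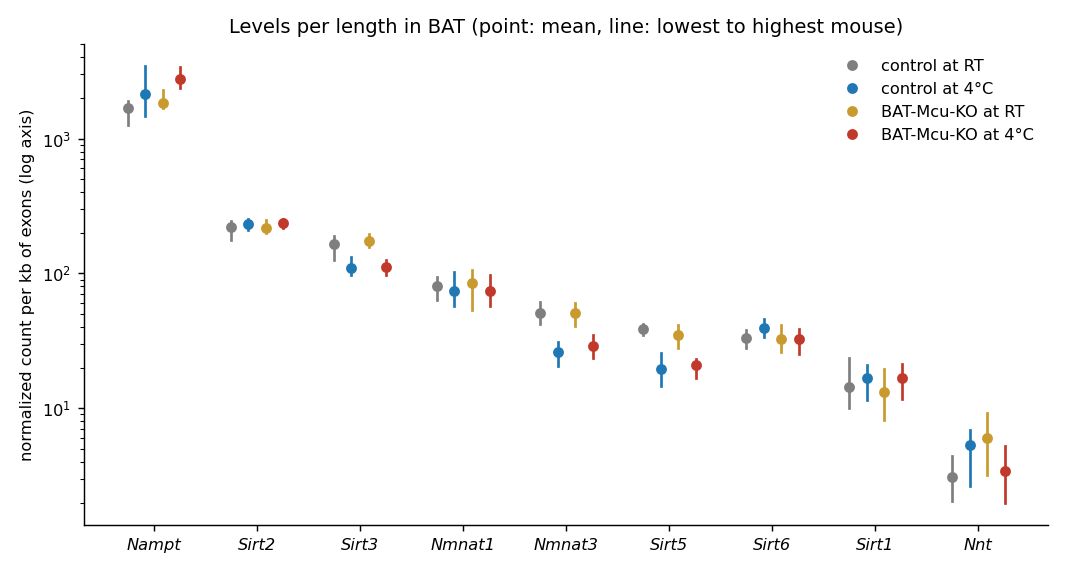
Levels of the 9 genes as normalized count per kb of exons on a log axis, in the 4 groups of mice. Points are means and lines run from the lowest to the highest mouse; Nampt lies above every other gene in all groups, and Nnt has the lowest mean.

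Nmnat3, Sirt3 and Sirt5, whose products are placed in mitochondria, were lower at 4°C than at RT in both genotypes. In control mice 3 of the 9 members changed, all lower, where 46.0% of all genes were called (23.7% lower and 22.3% higher). In BAT-Mcu-KO mice 5 of the 9 changed, with Nampt higher and Nmnat3, Sirt3, Sirt5 and Nnt lower, where 43.3% of all genes were called (21.9% lower and 21.4% higher). These shares of members are near the shares of all genes. The median log2 fold change with cold over the 9 members was 0.09 in control mice and -0.19 in BAT-Mcu-KO mice, and -0.02 in each over all genes.

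**Figure D2:**
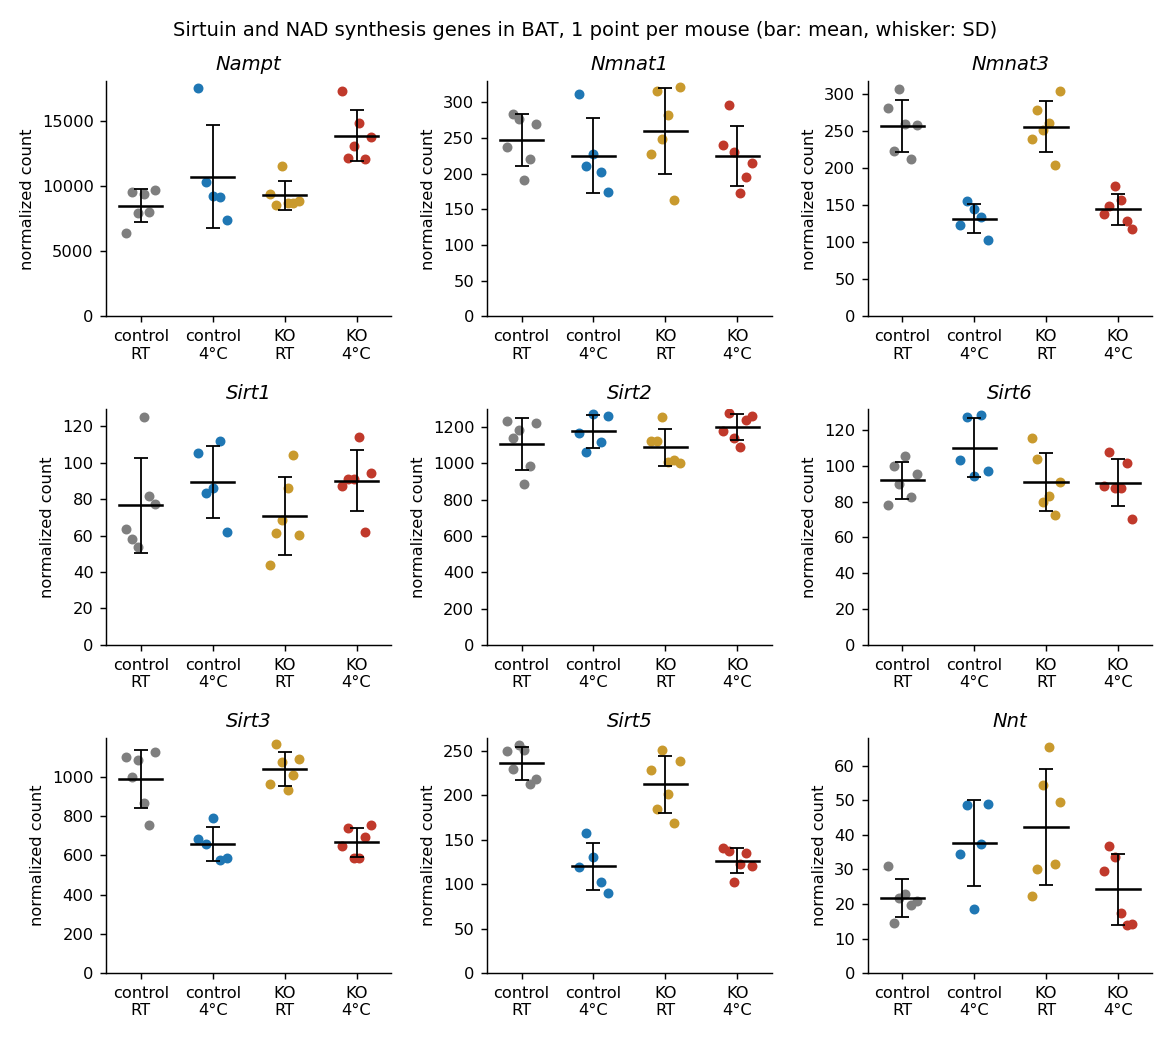
Normalized count of each of the 9 genes in every mouse, by group (KO, BAT-Mcu-KO). Bars are means and whiskers SD. For Nmnat3 and Sirt5 every mouse at 4°C lies below every mouse at RT, while the groups of Nmnat1, Sirt1, Sirt2 and Sirt6 overlap. Within a genotype, 12.3% of all genes (control) and 11.9% (BAT-Mcu-KO) separate downwards in this way.

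Among the NAD synthesis enzymes, Nmnat3 (ENSMUSG00000032456, chr9:98287435-98420438, plus strand) fell with cold in both genotypes. In control mice at RT its lowest, median and highest normalized counts were 212, 258 and 307, and the 5 controls at 4°C had 123, 155, 144, 134 and 103. With the knockout the values were 204, 255 and 303 at RT and 118, 144 and 176 at 4°C. Every mouse at 4°C was thus below every mouse at RT of its genotype, a separation that 12.3% of all genes showed in the same direction in control mice and 11.9% in BAT-Mcu-KO mice. Nmnat3 decreased by 0.96 on the log2 scale in control (adjusted p = 1.4e-06 in limma, SE 0.13), to 0.515 of the RT level, and by 0.82 in BAT-Mcu-KO mice (adjusted p = 6.8e-06, SE 0.12), to 0.565.

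Nmnat1 (chr4:149467572-149485202, minus strand), the nuclear enzyme of the same step, did not pass the test. Its normalized count was 246 ± 36.4 in control mice at RT and 225 ± 52.0 at 4°C (SD, n = 6 and 5), and 259.8 ± 60.0 and 225 ± 42.3 in BAT-Mcu-KO mice (n = 6 and 6). The log2 fold change with cold was -0.14 (95% interval -0.49 to 0.20) in control mice and -0.19 (-0.52 to 0.14) in BAT-Mcu-KO mice. The ratio of Nmnat3 to Nmnat1 within a library does not depend on the scaling between libraries. It was 0.785 to 1.35 in control mice at RT and 0.396 to 0.734 at 4°C, without overlap, and 0.878 to 1.24 against 0.504 to 0.910 in BAT-Mcu-KO mice, where the ranges overlapped. A lower ratio at 4°C follows from the same counts that gave the calls above and is no separate result.

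Nampt (chr12:32819545-32853349, plus strand) was the one member called higher with cold in the main limma fit, and only in BAT-Mcu-KO mice. The lowest, median and highest normalized counts there were 8542, 8760.35 and 11530.3 at RT and 12059.8, 13411 and 17294 at 4°C. All 6 mice at 4°C lay above all 6 at RT, a separation that 12.4% of all genes showed upwards, and the log2 fold change was 0.58 (adjusted p = 0.00243 in limma, SE 0.15). In control mice the values were 6376, 8726 and 9677 at RT, and the 5 mice at 4°C had 17497, 10280.1, 9256, 9183 and 7433. Control mouse 1 at 4°C thus stood alone above the others of its group, and 2 of 5 mice exceeded every mouse at RT. The log2 fold change in control was 0.29 (adjusted p = 0.134, SE 0.15). It was 0.09 without mouse 1 (adjusted p = 0.563) and passed the test without mouse 5, at 0.40 (adjusted p = 0.0363), so the call turned on single mice. The cold effects of the genotypes differed by 0.29 on the log2 scale (adjusted p = 0.873, SE 0.21), so no difference between them was shown.

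Sirt3 and Sirt5, the mitochondrial sirtuins among the members, were both lower in the cold. Sirt3 (ENSMUSG00000025486, chr7:140863666-140882309, minus strand) had lowest, median and highest normalized counts of 754, 1043 and 1125 in control mice at RT. The controls at 4°C had 682, 659, 790.3, 578 and 589. In BAT-Mcu-KO mice the values were 935, 1042 and 1168 at RT and 584, 671 and 755 at 4°C. All 6 BAT-Mcu-KO mice at 4°C, and 4 of 5 control mice, lay below every mouse at RT of their genotype. Full separation downwards, which Sirt3 had only in BAT-Mcu-KO mice, was shown by 11.9% of all genes there and by 12.3% in control mice. Sirt3 decreased by 0.58 on the log2 scale in control (adjusted p = 8.8e-05 in limma, SE 0.11) and by 0.64 in BAT-Mcu-KO mice (adjusted p = 1.4e-05, SE 0.10), to 0.670 and 0.641 of the RT level. Reads were counted irrespective of strand, and Sirt3 shares 418 exonic bases with Ric8a and 342 with Psmd13 on the opposite strand, 6.998% and 5.73% of its exons. Psmd13, a proteasome subunit, moved the other way, by 0.25 in control mice and 0.37 in BAT-Mcu-KO mice (adjusted p = 0.00635 and 0.000113 in limma). Ric8a, listed as Ric8, had log2 fold changes of 0.08 and 0.13 (adjusted p = 0.548 and 0.301) and did not pass the test.

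Sirt5 (ENSMUSG00000054021, chr13:43365496-43395203, plus strand) had lowest, median and highest normalized counts of 212, 239 and 256 in control mice at RT, while the controls at 4°C had 119, 158, 131, 103 and 89.8. The BAT-Mcu-KO mice had 169, 215 and 250.8 at RT and 102, 129 and 141 at 4°C. As for Nmnat3, no mouse at 4°C reached any mouse at RT of its genotype. Such a separation downwards was shown by 12.3% of all genes in control mice and 11.9% in BAT-Mcu-KO mice. Sirt5 decreased by 0.99 on the log2 scale in control (adjusted p = 1.3e-06 in limma, SE 0.13), to 0.504 of the RT level. The decrease in BAT-Mcu-KO mice was by 0.73 (adjusted p = 4.2e-05, SE 0.13), to 0.601. The calls of Nmnat3, Sirt3 and Sirt5 by cold held in both genotypes under every alternative tried and without any 1 of the 23 mice.

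**Figure D3:**
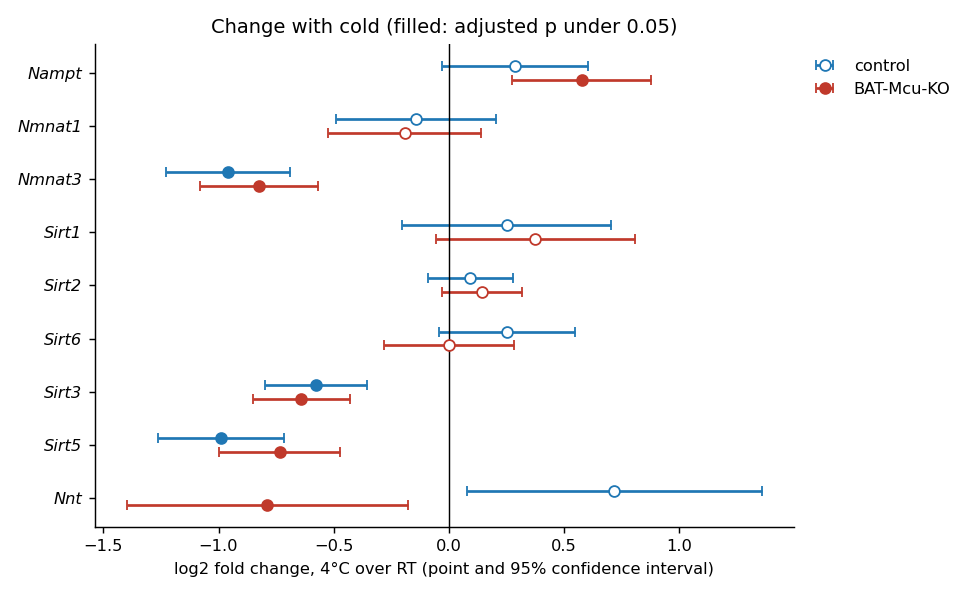
Log2 fold change of each gene from RT to 4°C, with its 95% confidence interval, in control (blue) and BAT-Mcu-KO mice (red); filled points passed the test at an adjusted p under 0.05 over all genes. Nmnat3, Sirt3 and Sirt5 lie left of 0 in both genotypes, and Nnt lies on opposite sides.

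The sirtuins outside mitochondria did not pass the test. Sirt2, the cytosolic deacetylase (chr7:28766735-28788661, plus strand), had normalized counts of 1109 ± 142 at RT and 1177 ± 91.8 at 4°C in control mice (SD, n = 6 and 5), and 1088 ± 99.6 and 1199 ± 72.9 in BAT-Mcu-KO mice (n = 6 and 6). The log2 fold change with cold was 0.09 (95% interval -0.09 to 0.28) in control mice and 0.14 (-0.032 to 0.32) in BAT-Mcu-KO mice, so the intervals hold no decrease as large as that of Sirt3. The sign turned under quantile normalization in both genotypes, and in control mice also under scaling to the 75th percentile. Sirt1, the nuclear deacetylase (chr10:63319005-63381704, minus strand), had 76.7 ± 26.1 and 89.6 ± 19.7 in control mice and 70.7 ± 21.3 and 90.0 ± 16.8 in BAT-Mcu-KO mice. The 95% interval of its log2 fold change was -0.20 to 0.70 in control mice and -0.058 to 0.81 in BAT-Mcu-KO mice. Both hold 0, and neither change passed the test (adjusted p = 0.370 and 0.158 in limma). Sirt6, a chromatin deacetylase (chr10:81621785-81627797, minus strand), had 91.9 ± 10.3 and 110.2 ± 16.6 in control mice and 91.0 ± 16.1 and 90.6 ± 13.1 in BAT-Mcu-KO mice. On the log2 scale the change was 0.25 (adjusted p = 0.153 in limma, SE 0.14) in control mice and -0.00013 (adjusted p = 0.999, SE 0.14) in BAT-Mcu-KO mice.

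Sirt3 and Sirt2 have similar counts at RT, and their ratio within a library sets the mitochondrial sirtuin against the cytosolic one. It was 0.765 to 0.979 in control mice at RT and 0.466 to 0.621 at 4°C. With the knockout it was 0.854 to 1.09 at RT and 0.515 to 0.598 at 4°C, so the temperatures did not overlap in either genotype. The ratio of Sirt5 to Sirt2 behaved alike, with 0.178 to 0.283 and 0.0711 to 0.149 in control mice, and 0.164 to 0.238 and 0.0895 to 0.119 in BAT-Mcu-KO mice. These ratios use the same counts as the tests above, so lower ratios at 4°C follow from those calls and are no separate result. How many other pairs of genes separate in this way was not determined. Of the sirtuins that are not among the 9 members, Sirt4 fell with cold and Sirt7 did not pass the test. Sirt4, the remaining mitochondrial sirtuin, decreased by 0.93 on the log2 scale in control (adjusted p = 0.00688, SE 0.27) and by 0.80 in BAT-Mcu-KO mice (adjusted p = 0.0146, SE 0.26). Sirt7, which resides in the nucleolus, had log2 fold changes of -0.24 (adjusted p = 0.195) and -0.31 (adjusted p = 0.0726).

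Nnt values spread widely between mice, and its cold effects had opposite signs in the genotypes. Nnt (chr13:119335448-119408997, minus strand, the first of 2 GENCODE entries of that name) was low, resting on 15 to 73 reads per mouse. C57BL/6J mice are known to carry a deletion of several Nnt exons, the reference genome is built from that strain, and the Nnt allele of each mouse is not given in the sources used here. The lowest, median and highest normalized counts were 14.5, 21.3 and 31.1 in control mice at RT, and the 5 control mice at 4°C had 34.4, 48.6, 18.7, 37.5 and 48.9. The BAT-Mcu-KO mice had 22.4, 40.5 and 65.4 at RT and 13.9, 23.5 and 36.8 at 4°C. The groups overlapped in every comparison. The log2 fold change with cold was 0.72 in control mice (adjusted p = 0.0612 in limma, SE 0.31) and -0.79 in BAT-Mcu-KO mice (adjusted p = 0.0335, SE 0.30). The difference between these effects was -1.51 (unadjusted p = 0.00171 and adjusted p = 0.700 in limma over all 14651 genes, SE 0.43) and did not pass the test.

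The highest values of Nnt went with the highest values of skeletal muscle genes. The 10 muscle markers summed to 14498 to 62337 in 6 mice, which were BAT-Mcu-KO mice 3, 4 and 6 at RT and control mice 2, 4 and 5 at 4°C, and Nnt was 37.5 to 65.4 there. In the other 17 mice the muscle sum was 17.4 to 10880.1 and Nnt 13.9 to 36.8. The 6 mice with the most muscle RNA were therefore also the 6 with the most Nnt. Among the other 17 the match was looser. BAT-Mcu-KO mouse 2 at 4°C, with the highest muscle sum of these, also had their highest Nnt. Control mouse 1 at 4°C, however, had Nnt of 34.4 at a muscle sum of 36.4, and BAT-Mcu-KO mouse 5 at 4°C had 13.9 at 5446. All 10 markers were in the table. Without the 5 libraries in which the muscle sum was above 20000, which are the 6 above except control mouse 4, the log2 fold change of Nnt with cold was 0.43 in control mice (adjusted p = 0.343) and -0.29 in BAT-Mcu-KO mice (adjusted p = 0.553), and the difference between them was -0.72 (adjusted p = 0.906). That fit lacks BAT-Mcu-KO mice 3, 4 and 6 at RT and control mice 2 and 5 at 4°C, which leaves these groups small. With the muscle sum as a covariate in all 23 mice the changes were 0.71 (adjusted p = 0.0286) and -0.69 (adjusted p = 0.0286). Without the same 5 libraries 4 members were called by cold in each genotype, Nampt higher and Nmnat3, Sirt3 and Sirt5 lower. Both settings were chosen after seeing the data, and the call of Nnt is uncertain.

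**Figure D4:**
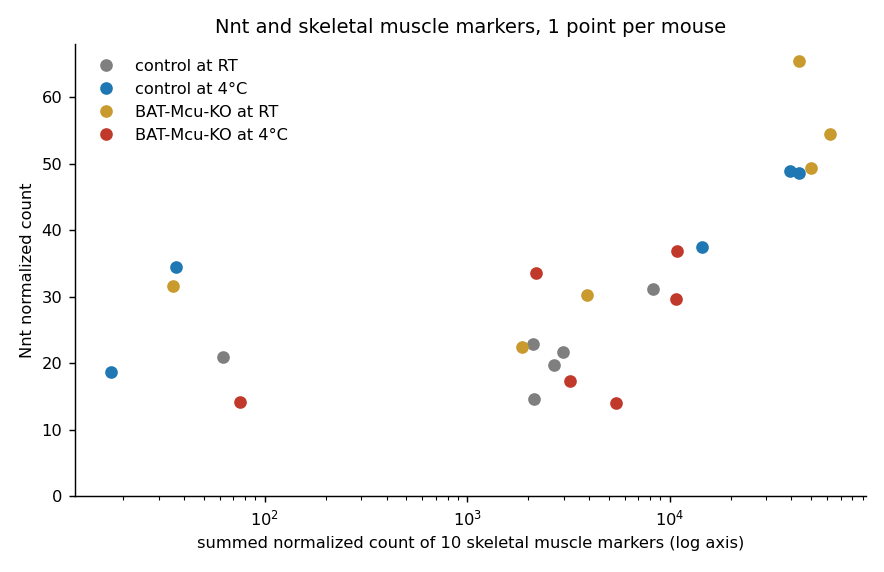
Normalized count of Nnt against the summed normalized count of 10 skeletal muscle markers on a log axis, 1 point per mouse and coloured by group. The 6 mice with a muscle sum of 14498 or more hold the highest 6 values of Nnt, 37.5 to 65.4, and the other 17 mice lie between 13.9 and 36.8.

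By genotype, no member changed. At RT limma called 0 of the 9 members, where 0.0478% of all genes were called, with 1 member, Nnt, at an unadjusted p under 0.05. The log2 fold changes ran from -0.16 for Sirt5 to 0.86 for Nnt (adjusted p = 0.940, SE 0.30). At 4°C limma also called 0 of 9, where 0.0751% of all genes were called, with Nampt and Nnt at an unadjusted p under 0.05. Nampt had a log2 fold change of 0.42 there (adjusted p = 0.570, SE 0.15), and Nnt had a log2 fold change of -0.64 (adjusted p = 0.708, SE 0.31). Without control mouse 1 at 4°C, the difference of Nampt was 0.62 (adjusted p = 0.0430) and passed the test, so this comparison turned on 1 library. In the interaction limma called 0 of 9, where 0.00% of all genes were called, with Nnt at an unadjusted p under 0.05. DESeq2 and edgeR, run on the reads recovered from the normalized counts, likewise called 0 members by genotype at either temperature and in the interaction.

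The rest of the NAD pathway was described from lists of genes. Over all genes, 22.3% rose and 23.7% fell with cold in control mice, and 21.4% and 21.9% did so in BAT-Mcu-KO mice. These shares are the background of the counts that follow. Of 14 other genes of NAD synthesis, 6 were in the table, and with cold 1 rose and 3 fell in control mice, and 0 rose and 3 fell in BAT-Mcu-KO mice. Naprt, which starts synthesis from nicotinic acid, decreased by 1.81 on the log2 scale in control and by 1.61 in BAT-Mcu-KO mice (SE 0.14 and 0.13). Nmrk1, which phosphorylates nicotinamide riboside, decreased by 1.35 and by 0.86 (SE 0.16 and 0.15). Nadsyn1, the last enzyme of the route from nicotinic acid, decreased by 0.53 and by 0.45 (SE 0.14 and 0.13). Their adjusted p in limma ran from 1.1e-10 to 0.00848. Kmo, of the route from tryptophan, was the gene that rose in control mice, by 1.19 (adjusted p = 0.0172, SE 0.40), and it was named after its values were seen.

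Of 5 NAD kinases and carriers, 4 were in the table, and 2 rose and 2 fell in each genotype. Slc25a17, the peroxisomal carrier of NAD and coenzyme A, rose by 1.54 in control mice and 1.60 in BAT-Mcu-KO mice, and Slc25a51, the mitochondrial NAD carrier, by 0.91 and 1.02 (SE 0.14 and 0.14). Slc25a51 had a normalized count of 4382 ± 756 in control mice at RT and 8277 ± 1541 at 4°C (SD, n = 6 and 5). Nadk2, the mitochondrial NAD kinase, decreased by 0.90 and by 0.77, and the cytosolic kinase Nadk decreased by 0.32 and by 0.23. The mitochondrial carrier of NAD was thus higher in the cold, while the mitochondrial Nmnat3, Nadk2 and Sirt3 to Sirt5 were lower. Not every mitochondrial gene fell, since the mitochondrial folate enzyme Mthfd2, given below, was called higher in both genotypes. Nnt had opposite signs in the genotypes. The decreases were not confined to mitochondrial genes. The cytosolic Nadk and, of the other lists, Naprt, Nmrk1, Nadsyn1 and the nuclear Parp1 were also called lower in both genotypes. Over all genes, 23.7% were called lower in control mice and 21.9% in BAT-Mcu-KO mice.

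Of 14 genes that consume NAD or handle nicotinamide, 12 were in the table, with 3 higher and 6 lower in control mice and 2 higher and 5 lower in BAT-Mcu-KO mice, beside 46.0% and 43.3% of all genes called in either direction. Nnmt, which methylates nicotinamide and so removes it from salvage, had a normalized count of 578 ± 201 in control mice at RT and 6435 ± 1153 at 4°C, and rose by 3.55 in control mice and 3.46 in BAT-Mcu-KO mice (SE 0.25 and 0.24). Tiparp, a mono-ADP-ribosyltransferase, rose by 2.08 and 1.91. Parp1, the main poly-ADP-ribose polymerase of the nucleus, decreased by 1.14 and by 0.90, and Aox1, which oxidizes methylnicotinamide, decreased by 1.19 and by 1.00 (limma, adjusted p at most 1.7e-07 for these 4 genes). A list for production of NADPH, which Nnt also makes, held 13 genes. Of these, 2 rose and 5 fell in control, against 2 and 4 with the knockout, near the same shares of 46.0% and 43.3%. The genes that rose were Glud1 and Mthfd2 in each genotype, and whether they make NADPH rather than NADH in BAT was not tested. G6pdx, Pgd, H6pd and Idh2 were called lower in each genotype, and Idh1 in control only. Glud1, glutamate dehydrogenase, rose by 1.18 and 0.70, and Pgd and H6pd, of the pentose phosphate pathway, decreased by 0.93 and 0.58 in control and by 0.87 and 0.46 in BAT-Mcu-KO mice. Mthfd2, a mitochondrial folate enzyme, rose by 2.85 in control mice and 0.87 in BAT-Mcu-KO mice and was the one gene of these lists called by genotype, with -1.69 at 4°C (adjusted p = 0.0151 in limma, SE 0.30). The difference of its cold effects between the genotypes was -1.99 (adjusted p = 0.700 in limma, SE 0.41) and did not pass the test.

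**Figure D5:**
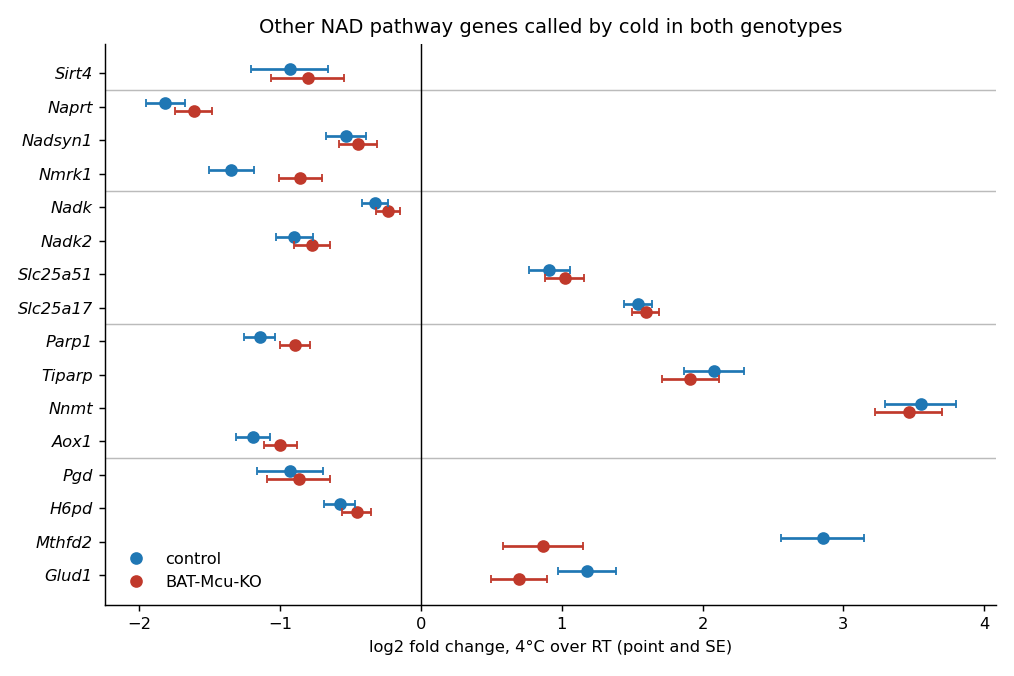
Log2 fold change from RT to 4°C of genes of the sirtuin, NAD synthesis, NAD kinase and carrier, NAD-consuming and NADPH lists (separated by lines, top to bottom) that were called by cold in both genotypes, with points for control and BAT-Mcu-KO mice and bars of 1 SE. At most 4 genes per list are shown; Nnmt, Tiparp, Slc25a17, Slc25a51, Glud1 and Mthfd2 lie right of 0 and the others left.

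Nampt is known as a target of the circadian factors Clock and Arntl (Bmal1), so the 11 clock genes were set beside it. With cold, 7 rose and 3 fell in control mice, and 5 rose and 3 fell in BAT-Mcu-KO mice, where 46.0% and 43.3% of all genes were called. Arntl had a normalized count of 8.42 ± 4.73 in control mice at RT and 246 ± 49.9 at 4°C and rose by 4.84 (SE 0.39), against 4.41 (SE 0.37) in BAT-Mcu-KO mice. Clock rose by 1.21 and 1.08, Npas2, at under 27 normalized counts in every mouse, rose by 1.92 and 2.35, while Per3 decreased by 2.97 in control and decreased by 2.71 in BAT-Mcu-KO mice. The time of day at which tissue was taken is not given in the sources used here, and its part was not tested.

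The genes most like the members called by cold in both genotypes, and like Nnt, were found by Pearson's r of log2 values over the 23 mice, which share the shift with temperature. For Sirt3 they were Apeh, Gnpat and Dhodh (r = 0.95 each), with r = 0.81, 0.84 and 0.73 once group means were removed. For Sirt5 they were Thrsp, Crot and Glod4 (r = 0.95 each, and 0.73, 0.72 and 0.65 within groups). For Nmnat3 they were Ankmy2, Gm15410 and Abcd4 (r = 0.95, 0.95 and 0.95, and 0.61, 0.69 and 0.58 within groups). For Nnt they were Art5, Smyd1 and Tnnt1 (r = 0.86, 0.86 and 0.83, and 0.84, 0.84 and 0.79 within groups), genes known from skeletal muscle. For Nampt, added after the values were seen, they were Trp53inp1, Pde1a and Slc25a32 (r = 0.88, 0.87 and 0.85, and 0.79, 0.81 and 0.73 within groups).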

How the data were processed

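RNA-seq libraries were made from the BAT of 23 mice by the Smart-seq2 method. Per the study's methods, the authors aligned paired reads to mm10 (GENCODE M7 annotation) with STAR 2.4.0j, counted uniquely mapped exonic reads with HTSeq irrespective of strand, and retained genes that had 8 or more reads in 6 or more libraries. The deposited signal is the normalized count, the reads divided by the DESeq2 size factor. A second deposited table holds the authors' own comparisons (fold changes and p-values) and was not used. Values were whole multiples of that of 1 read (100% of them, tolerance 0.01), which gave back the reads. Reads give counting error only, since PCR copies are not independent molecules.

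Groups came from the sample labels. Normalized counts were tested as log2(value + 1) with limma 3.58.1 (trend, 4 group means, 23 samples, R 4.3.3) for cold in each genotype, genotype at each temperature and their interaction, with Benjamini-Hochberg adjustment over 14651 genes and a threshold of 0.05. A fold change on this scale understates that of low genes. The study's methods used DESeq2 on counts; DESeq2 1.42.0 and edgeR 4.0.16 on recovered reads were alternatives here, as were other pseudocounts, filters, scalings, a replicate block and leaving out each mouse. The scripts were tested on simulated data. Members and gene lists were chosen with earlier results of these data known. Of each list, up to 4 genes called by cold in both genotypes with the same sign were named, those with the largest change in control. Gene positions and exon lengths are from GENCODE M21 (94.1% of symbols matched) and promoters from RefSeq on GRCm38.p6. The macrophage, lymphocyte, erythroid, fibroblast and nerve marker lists were summed as well.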

Additional observations from a re-analysis of the deposited data

Results flagged for a closer look

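Of 36 groups of mice (9 members in 4 groups), 2 held a mouse set apart from the rest by Dixon's criterion, which chance alone meets in about 1 in 20 groups. Both were for Nampt. Control mouse 1 at 4°C had a normalized count of 17497, against 7433 to 10280.1 in the other control mice at 4°C, and rested on 8650.0 reads in the shallowest library, which held 7129271 reads. BAT-Mcu-KO mouse 3 at RT had 11530.3, against 8542 to 9407 in the others of its group, and its skeletal muscle sum was the highest of all mice at 62337. The part of depth or of muscle RNA in these values was not tested.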

How the results depend on the processing

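The counts of members called by cold in each genotype, by genotype at RT and in the interaction stayed within 1.5 times the main count under each of the alternatives and without any 1 mouse. By genotype at 4°C the count ranged from 0 to 1 when 1 mouse was left out, and Nampt was the member called without control mouse 1. Nnt by cold in BAT-Mcu-KO mice lost its call under quantile normalization (-0.64, adjusted p = 0.0751), with only the compared groups in the limma fit and with a replicate block (adjusted p = 0.0517 and 0.0560, with a log2 fold change of -0.79 as before and larger SE, 0.31 and 0.33) and without the 5 libraries rich in muscle RNA (-0.29), as it did without BAT-Mcu-KO mouse 3, 4 or 6 at RT or 4, 5 or 6 at 4°C (adjusted p = 0.0698 to 0.0940). By cold in control mice Nnt gained a call under quantile normalization (0.84), DESeq2 (0.79), edgeR (0.78), with muscle as a covariate (0.71) and without control mouse 1 at RT (0.82) or 3 at 4°C (0.94), and Nampt gained one without the 5 libraries rich in muscle RNA (0.44, adjusted p = 0.0489). The causes were not tested. A filter at a mean normalized count of 50 removed Nnt and left 8 members.

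Signs turned only for differences that passed no test. By cold, Sirt2 in control mice was at -0.016 under scaling to the 75th percentile and -0.083 under quantile normalization, and in BAT-Mcu-KO mice at -0.015 under quantile normalization, while Sirt6 in BAT-Mcu-KO mice was at 0.088 under quantile normalization and 0.021 with muscle as a covariate. Under the replicate block Nmnat1 by genotype at 4°C was at -0.025 and Sirt3 at -0.010, and Nmnat1 in the interaction was at 0.0085 under scaling to the 75th percentile. Without the 5 libraries rich in muscle RNA, Nmnat1 was at -0.10 and Sirt6 at 0.062 by genotype at RT, Nmnat1 at -0.13, Sirt1 at -0.18 and Sirt3 at -0.028 by genotype at 4°C, and Sirt1 at -0.013 in the interaction. With each mouse left out, Sirt6 by cold in BAT-Mcu-KO mice ranged from -0.061 to 0.072. By genotype at RT the ranges were -0.017 to 0.18 for Nmnat1, -0.057 to 0.059 for Nmnat3, -0.23 to 0.043 for Sirt1, -0.084 to 0.011 for Sirt2 and -0.097 to 0.036 for Sirt6. By genotype at 4°C they were -0.081 to 0.13 for Nmnat1, -0.11 to 0.12 for Sirt1, -0.0080 to 0.058 for Sirt2, -0.024 to 0.088 for Sirt3 and -0.0042 to 0.20 for Sirt5. In the interaction they were -0.17 to 0.075 for Nmnat1, -0.028 to 0.24 for Sirt1 and -0.11 to 0.012 for Sirt3.

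Scaling to the 75th percentile moved the median of all genes by cold in control mice to -0.13, from -0.02, and called 2644 genes higher and 4281 lower, against 3269 and 3466. Over all genes, DESeq2 called 20 by genotype at RT, 23 at 4°C and 28 in the interaction, where limma called 7, 11 and 0 and edgeR 7, 6 and 0. With only the compared groups limma called 3 and 2 by genotype, and without the 5 libraries rich in muscle RNA 8 and 2. Replicate numbers name different mice. The correlation of deviations of same-numbered mice was 0.0042 to 0.427 between genotypes at 4°C, with 4 of 5 pairs over 0.1 and 2 mice correlating best with their own number, and averaged below 0 in the other comparisons, so the numbers were not taken as pairs. With the replicate block 3 and 4 members were called by cold, in this order for control and BAT-Mcu-KO mice, and 0 by genotype or in the interaction, and no other call changed than that of Nnt. At 15 to 73 reads, Nnt is the member most limited by depth.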

Other observations

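The other cell type markers were read in the same libraries. Summed macrophage markers (5 of 5 in the table) were 610.2 to 846 in BAT-Mcu-KO mice at 4°C and 340.2 to 682 in the other groups, overlapping. Schwann cell and nerve markers (5 of 5) summed to 928 to 1640 at RT and 649.5 to 1222 at 4°C. Erythroid markers (5 of 5) summed to 1885 to 6952 and fibroblast markers (4 of 4) to 3253 to 7587 over all mice, and the 2 of 4 lymphocyte markers in the table summed to 17.4 to 99.1.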
